A study of Mus musculus with 37 samples.

Results

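Neutrophils were examined in single-cell RNA-Seq of the nonmyocyte cells of the injured mouse heart at 7 days after myocardial infarction. They were selected on their own readout, as barcodes in which S100a8 and S100a9 together took at least 2% of the counts and Col1a1, Col1a2, Col3a1 and Dcn together took less than 0.5%. The rule chose 87 of 12807 barcodes, of which 11 came from the ENPP1CKO library and 76 from the control library.

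The ENPP1CKO animals carried the Col1a2CreERT driver with floxed ENPP1 (Col1a2CreERT:ENPP1 fl/fl), the ectonucleotidase that hydrolyzes extracellular ATP, and received tamoxifen around the time of injury. The control animals are given as wild type in the labels, and all animals were C57BL/6 mice with the same injury. The Col1a2 promoter directs the deletion to fibroblasts, so the neutrophils were not the cells in which the allele was targeted. There was 1 library for each genotype and the number of hearts behind each is not given in the sources used here, so no difference between genotypes was tested. The 95% limits given beside values cover counting error only.

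Neutrophils are short-lived granulocytes that leave the bone marrow with their granule proteins already made and enter an infarct within hours, ahead of the monocytes and macrophages that clear them. They carry large stores of the calcium-binding proteins S100a8 and S100a9, which form a heterodimer that acts as an alarmin, and they respond to G-CSF through Csf3r and to CXC chemokines through Cxcr2. Mature neutrophils hold little RNA, which makes them easily lost from droplet-based data.

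As a check of the labels, Enpp1 stood at 27.1 counts per 1000000 counts of those cells (CPM, 95% limits 24.6 to 29.9) in fibroblast barcodes of the ENPP1CKO library and at 126 (118 to 133) in those of the control library. Enpp1 had 0 counts among the 72736 counts of all neutrophils, which allows a level of up to 41.2 CPM by a bound of 3 counts. The libraries held 7460 and 5347 barcodes with 28039559 and 22746607 counts, and medians of 3396 and 3703 counts per barcode. No barcode lay under 500 counts in either library. The libraries shared 68 barcode sequences, and 0 of the neutrophils were among them.

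The chosen barcodes bore the other markers of neutrophils (the heat map of detection by class). Csf3r, the G-CSF receptor (chr4:126024550-126044440, GRCm38), had a count in 7 of 11 ENPP1CKO and 32 of 76 control neutrophils. Retnlg (chr16:48872621-48874496), a resistin-like secreted protein of granulocytes, had one in 4 and 26. Counts of at least 2 of 9 neutrophil genes, Csf3r, Retnlg, Cxcr2, Il1r2, G0s2, Hdc, Mmp9, Trem1 and Clec4d, were found in 10 of 11 and 74 of 76. The genes highest over all other barcodes, among those with a count in at least 25% of the neutrophils, were the stefins Gm5483 and Stfa2l1 at 9014-fold and 7234-fold, S100a9 at 6858-fold, Retnlg at 6520-fold, S100a8 at 4598-fold and Cxcr2 at 1004-fold. They were followed by Acod1, the itaconate-making enzyme, at 441-fold, Hdc, histidine decarboxylase, at 372-fold, the retinol dehydrogenase Rdh12 at 365-fold, the receptor Trem3 at 295-fold, the iron-binding lipocalin Lcn2 at 240-fold and the nicotinic acid receptor Hcar2 at 235-fold. Reads of the near-identical stefin genes may have been split among them, and their values are uncertain. The fold of Retnlg was 2165 without the ENPP1CKO barcode that held most of its counts. These folds describe barcodes chosen for S100a8 and S100a9 and were not tested.

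S100a8 (chr3:90668978-90670035, + strand) and S100a9 (chr3:90692632-90695721, - strand, both GRCm38) lie close together and were found in all 87 neutrophils, as the rule all but required. The 250 bases before the RefSeq start of these 2 genes are shown (GRCm38.p6), with those of Retnlg and of the granule gene Ngp, because most ENPP1CKO counts of the latter pair came from a single barcode. Gene positions came from another annotation, by which the S100a8 and Ngp windows end inside the gene. Capitals mark a C/EBP-type motif (TTGCNNAA) or a PU.1-type motif (GAGGAAGT) on either strand, the sites of factors that act in granulocyte genes.
S100a8 (chr3:90668821-90669070, + strand): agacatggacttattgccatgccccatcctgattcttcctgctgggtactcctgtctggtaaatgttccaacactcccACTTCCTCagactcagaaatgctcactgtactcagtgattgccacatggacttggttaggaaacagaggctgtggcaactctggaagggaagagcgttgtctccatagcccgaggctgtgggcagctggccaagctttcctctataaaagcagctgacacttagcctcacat
S100a9 (chr3:90695722-90695971, - strand): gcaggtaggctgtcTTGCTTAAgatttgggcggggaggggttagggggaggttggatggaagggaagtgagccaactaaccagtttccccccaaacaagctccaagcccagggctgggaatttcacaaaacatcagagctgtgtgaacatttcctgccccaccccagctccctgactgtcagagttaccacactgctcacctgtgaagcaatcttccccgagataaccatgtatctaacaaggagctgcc
Retnlg (chr16:48872358-48872607, + strand): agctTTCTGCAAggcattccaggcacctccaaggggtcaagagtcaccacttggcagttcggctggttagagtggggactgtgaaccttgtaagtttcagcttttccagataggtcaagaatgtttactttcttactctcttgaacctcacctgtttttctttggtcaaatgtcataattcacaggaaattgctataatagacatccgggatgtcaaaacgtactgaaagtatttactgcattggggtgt
Ngp (chr9:110419558-110419807, + strand): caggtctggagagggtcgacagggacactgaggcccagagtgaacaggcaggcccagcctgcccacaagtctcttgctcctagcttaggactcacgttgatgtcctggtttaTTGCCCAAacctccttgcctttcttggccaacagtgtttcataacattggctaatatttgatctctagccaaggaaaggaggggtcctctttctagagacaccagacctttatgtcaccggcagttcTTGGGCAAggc
The S100a8 window held a PU.1-type match 172 bases before the start, on the reverse strand. The S100a9 window held a C/EBP-type match at 236 bases, that of Retnlg held one at 246 bases and that of Ngp held one each at 138 and 11 bases. By the other annotation, in which Ngp starts at 110419747, the match at 11 bases lies inside the gene. The C/EBP-type letters occurred in 9.56% of 32851 mouse promoter windows of this length and the PU.1-type letters in 2.44%. Of the 12 genes highest over other barcodes, 9 had a promoter in the table, of which 4 held the C/EBP-type and 1 the PU.1-type letters. A match is a description of the sequence and binding was not measured.

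**Figure D1:**
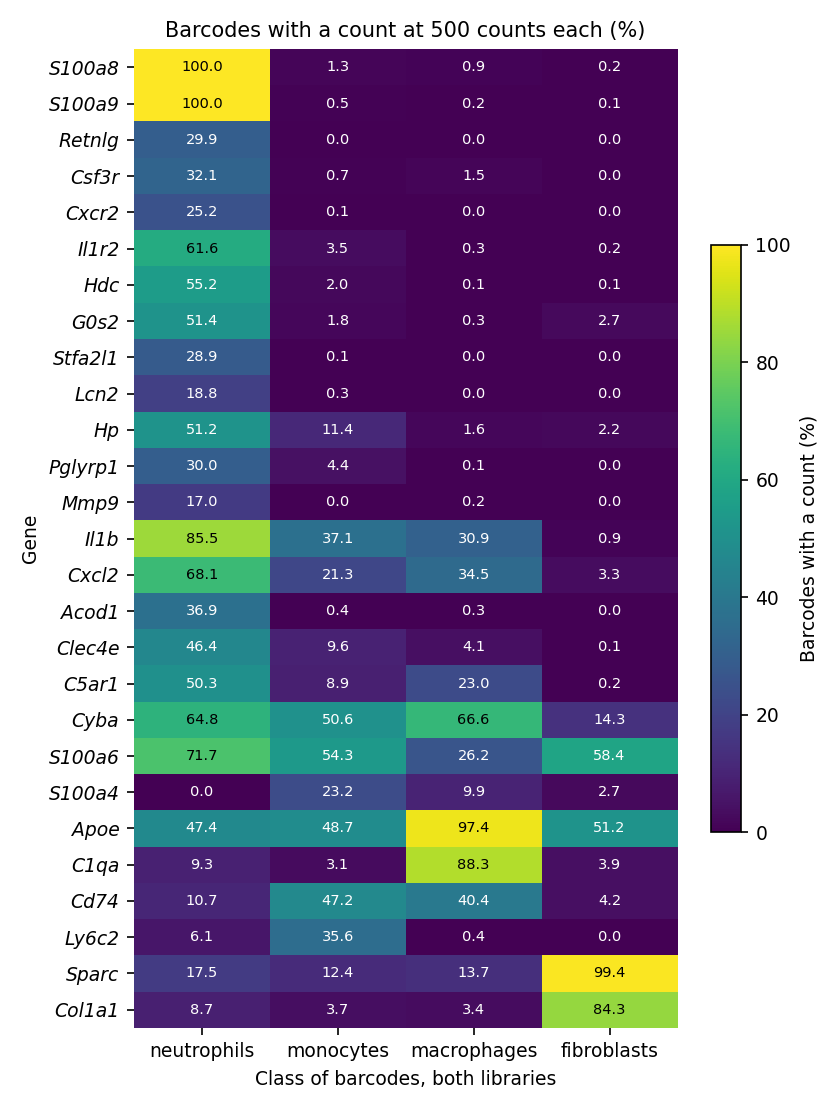
Percent of barcodes with at least 1 count of each gene (rows) in neutrophils, monocytes, macrophages and fibroblasts (columns) of both libraries, after each barcode was thinned to 500 counts. Il1r2 was found in 61.6% of neutrophils and at most 3.51% of barcodes of the other 3 classes, whereas S100a4 was found in none of the neutrophils.

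At an equal depth of 500 counts per barcode, Csf3r was found in 32.1% of neutrophils, 0.653% of monocytes, 1.46% of macrophages and 0.0158% of fibroblasts. Without thinning these shares were 44.8%, 3.30%, 8.98% and 0.183%. Il1r2, the decoy receptor that binds interleukin 1 without signaling, was found in 61.6% of thinned neutrophils against 3.51% of monocytes. Hdc was found in 55.2% and 2.00%. Other genes of the neutrophils were shared with the other myeloid cells. Cyba, the membrane subunit of the phagocyte NADPH oxidase, was found in 64.8% of neutrophils, 50.6% of monocytes and 66.6% of macrophages. The S100 family was divided as well, with S100a11 in 92.3% and S100a6 in 71.7% of neutrophils, while S100a4, present in 23.2% of thinned monocytes and in 9.86% of macrophages, had 0 counts over all neutrophils.

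Granule genes are transcribed in the marrow in stages, and those of the early stages had few counts. Of 8 genes of the primary granules, which promyelocytes fill, 6 had 0 counts in all neutrophils, among them Mpo, Elane, Prtn3 and Ctsg, and 2 were detected, with 5 counts in ENPP1CKO and 8 in control neutrophils. Of the secondary granule genes, which are made later, Ltf had 0 counts. Hp, which encodes haptoglobin, had 24 and 113 counts and Lcn2 had 10 and 32. Ngp and Camp, with 13 and 3 counts, were found in the same ENPP1CKO barcode and in none of the controls. Of the gelatinase granule genes, Mmp9 was found in 21 neutrophils, Pglyrp1 in 36 and Itgam, the alpha chain of the Mac-1 integrin, in 15. The 12 genes of dividing cells had 0 and 2 counts in all.

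The neutrophils were the shallowest of the cells compared (the scatter of S100 share against counts). Their median was 814 counts and 440 genes in the ENPP1CKO library and 694 counts and 374.5 genes in the control library, with ranges of 511 to 1843 and 507 to 4526 counts. The share of S100a8 and S100a9, which chose them, ran from 2.09% to 31.1% in the ENPP1CKO and from 2.05% to 28.01% in the control library, with medians of 12.1% and 10.3%. The barcodes just inside the threshold held 2.09% and 2.83% (ENPP1CKO) or 2.05% and 2.60% (control). Those just outside held 1.89% and 1.63%, and 1.85% and 1.68%. In the control library 3 barcodes passed on S100a8 and S100a9 but not on the collagen genes, and in the ENPP1CKO library 0 did.

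**Figure D2:**
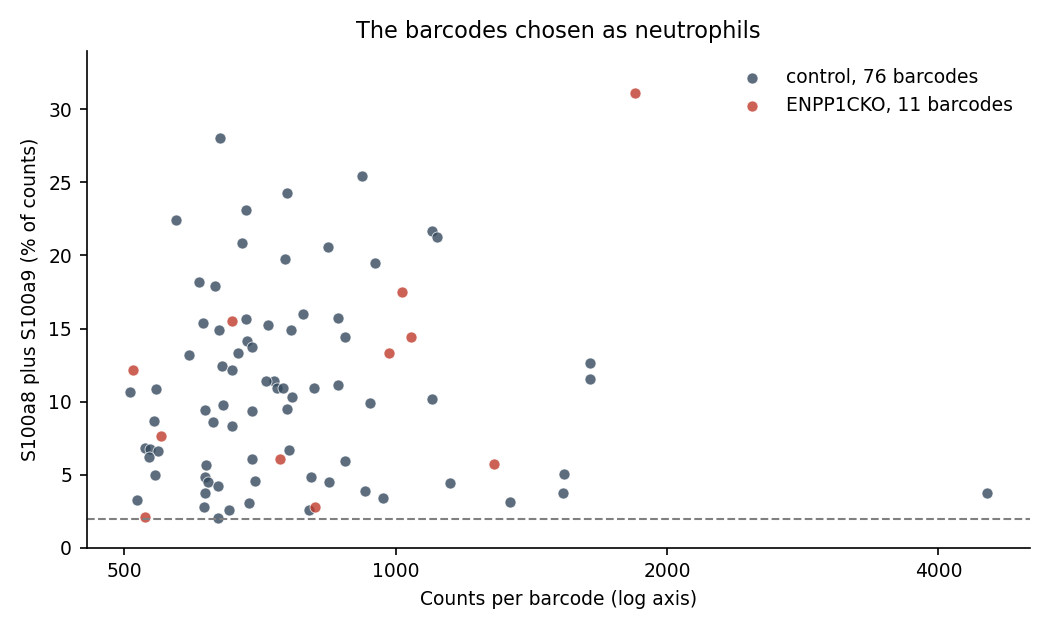
Each of the 87 neutrophils by its counts (x axis, log scale) and by the percent of those counts from S100a8 and S100a9 (y axis), the dashed line marking the 2% threshold of the rule. Most lie under 1000 counts. The ENPP1CKO barcode with the most counts holds 1843 and the control barcode with the most holds 4526.

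Neutrophils were a smaller share of the ENPP1CKO library. They made up 0.147% of its barcodes (95% limits 0.0736% to 0.264%) and 1.42% of those of the control library (1.12% to 1.78%). The difference, ENPP1CKO minus control, was -1.27 percentage points (-1.64 to -0.952), and the control share was 9.64-fold higher (5.09 to 20.1). Relative to other cells of the heart, there were 0.556 neutrophils for every 100 macrophages with ENPP1CKO and 3.81 with control, and 12.8 and 60.3 for every 100 monocytes. A share depends on all other cells in the library. Macrophages made up 26.5% and 37.3% of barcodes and fibroblasts 44.7% and 29.7%, in that order of libraries. Set against all barcodes other than macrophages, the neutrophil shares were 0.201% and 2.27%.

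Most of the gap lay among barcodes near the lower limit of the files (the plot of neutrophil share by depth). From 600 to under 700 counts, 29 of 105 control barcodes were neutrophils, or 27.6% (19.3% to 37.2%), against 1 of 106 ENPP1CKO barcodes, or 0.943% (0.0239% to 5.14%). From 700 to under 1000 counts the shares were 10.0% of 259 and 0.949% of 316 barcodes. Over all barcodes under 1000 counts, 66 of 454 control barcodes and 7 of 542 ENPP1CKO barcodes were neutrophils, an 11.3-fold difference (5.17 to 29.1). Among barcodes with at least 1000 counts there were 10 of 4893 and 4 of 6918, and the control share was 3.53-fold higher (1.02 to 15.4), a value resting on 14 cells. Barcodes under 500 counts were not analysed here, so fewer neutrophils and less RNA per neutrophil cannot be told apart, nor can genotype and library.

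**Figure D3:**
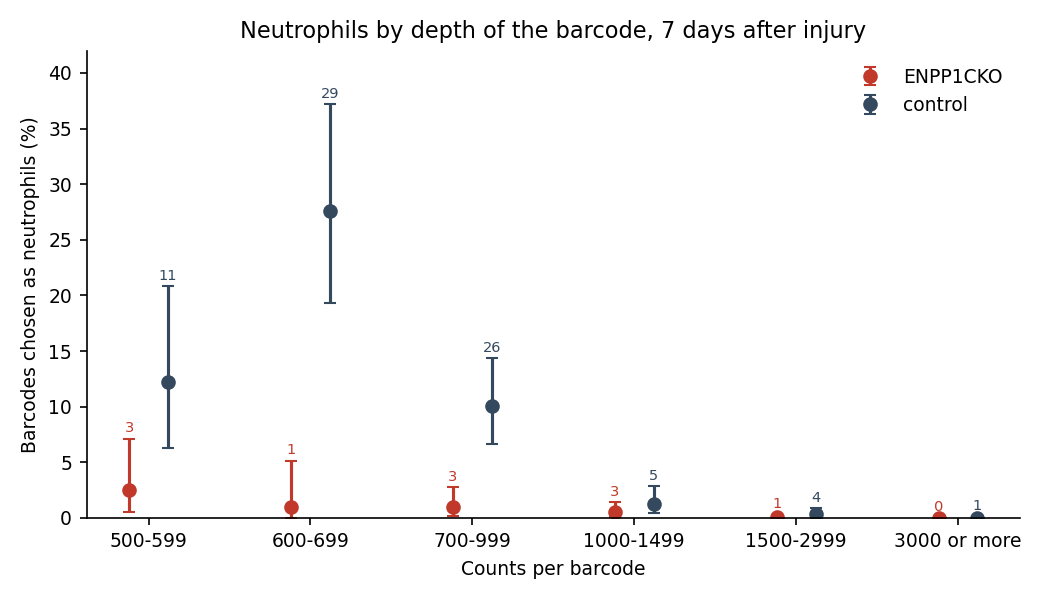
Percent of barcodes chosen as neutrophils (y axis) in bins of counts per barcode (x axis) in the ENPP1CKO and control libraries, with exact 95% limits and the number of neutrophils above each point. In the 3 bins under 1000 counts the control share lay between 10.0% and 27.6% and the ENPP1CKO share between 0.943% and 2.50%.

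S100a8 was also counted outside the neutrophils, at low levels. In fibroblasts S100a8 stood at 1.97 CPM (1.32 to 2.83) for ENPP1CKO and 9.30 (7.41 to 11.5) for control, a 4.72-fold difference (3.06 to 7.48). It had a count in 0.510% and 5.10% of fibroblasts at median depths of 4044 and 5203 counts, and in 0.0779% and 0.437% after thinning to 500. S100a9 in fibroblasts differed 5.28-fold (2.53 to 12.05). In macrophages S100a8 stood at 8.50 and 27.5 CPM, a 3.24-fold difference (2.41 to 4.40), whereas S100a9 stood at 3.31 and 5.18 CPM and differed 1.56-fold (0.907 to 2.75), with limits that included 1. The counts of S100a8 for each count of S100a9 were 1.82 and 1.72 in neutrophils, and 2.90 (1.37 to 6.67) and 2.59 (1.71 to 4.03) in fibroblasts. In macrophages they were 2.57 (1.56 to 4.35) and 5.32 (3.74 to 7.73). The source of these counts was not tested. The level of S100a8 in neutrophils was 89934 and 65661 CPM, and its gap from the other cells is fixed by the rule itself. Without the neutrophil with most S100a8 counts in each library, the levels in neutrophils were 63707 and 64267 CPM.

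Red cell RNA moved the other way. Of 5 genes of red cells, mostly hemoglobin chains, the ENPP1CKO library held 41927 counts and 16 barcodes with at least 1% of their counts from them, and the control library held 161 counts and 0 such barcodes. Neutrophils held 1 count and 0 counts of these genes. The part of circulating blood in the neutrophil shares was not tested.

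The 76 control neutrophils were set in order of their S100 share, the value that chose them, as a description. With S100a8 and S100a9 left out of the totals, Retnlg went from 298 CPM (120 to 613) in the 26 neutrophils with the lowest S100 share to 5024 (3965 to 6279) in the 25 with the highest, and Stfa2l1 went from 510 (264 to 892) to 3001 (2197 to 4003). Wfdc17, a small WAP-domain protein of activated phagocytes, went from 2850 (2208 to 3619) to 16246 (14290 to 18394), and the protease inhibitor Slpi from 1999 (1469 to 2658) to 5742 (4605 to 7074). The limits overlapped for Csf3r and Cxcr2, at 553 (294 to 946) and 718 (358 to 1284) for Csf3r and 468 (234 to 837) and 718 (358 to 1284) for Cxcr2. Ccl3 was lower at the high end, at 522 (225 to 1028) against 1531 (1072 to 2120). Apoe, a gene of macrophages, stood at 18587 CPM (16885 to 20414) in the lowest group and at 1109 (646 to 1776) in the highest. Of the 437 Apoe counts in the lowest group, 418 lay in the barcode with 1.77% of its counts from the C1q genes. The gap in Apoe therefore rested on that barcode and cannot be read as a trend along the order. The low end of the order also lies next to the threshold of the rule, and the part of other cells' RNA in these values was not tested. Several genes were concentrated in a few cells. The 5 control neutrophils with most counts of the gene in question held 51.6% of the counts of Retnlg, 51.0% of those of Gm5483 and 24.4% of those of Il1r2.

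Single barcodes weighed more in the ENPP1CKO library. The one with the most counts had 18.5% of all ENPP1CKO neutrophil counts and the highest S100 share. It held 234 of 251 counts of Retnlg, 14 of 16 of Mmp8, the neutrophil collagenase, and all 13 of Ngp and 3 of Camp, both secondary granule proteins, with 0 counts of Il1b. Another, of 1285 counts, held 61 of 81 counts of Slpi and 19 of 31 of Il1rn. Another, of 814 counts, held all 10 counts of Hilpda, a lipid droplet protein induced by hypoxia, and 12 of 21 of the chemokine Ccl3. In the control library the barcode with the most counts held 418 of 484 counts of Apoe and 120 of 212 of Lyz2, with 1.77% of its counts from the C1q genes of macrophages. Each ratio between genotypes was therefore also computed without the barcode holding most counts of the gene in each library. This takes 1 of 11 ENPP1CKO against 1 of 76 control neutrophils and tends to lower ratios, so it cannot test a low ratio.

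Of 526 genes with at least 20 counts in the neutrophils of both libraries together, 42 (7.98%) were at least 2-fold higher in ENPP1CKO and 95 (18.1%) at least 2-fold lower, on CPM summed over neutrophils. The median log2 ratio of all of them was -0.08. A gene with 0 counts in a library was set at 3 counts for this purpose, and 22 of the genes had 0 in ENPP1CKO. With only 9974 ENPP1CKO counts, a ratio of 2-fold lies within counting error for many of these genes, and the counts describe these libraries. Control neutrophils held 62762 of the 72736 counts, so a gene high in control passed the minimum of 20 counts more easily. The excess of lower over higher genes therefore cannot be read as a direction. Thinning to 1000 counts kept only the 4 ENPP1CKO and 10 control neutrophils with at least that many. Among these 14 of 82 genes were higher and 14 lower, too few cells to give a direction.

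Among genes with at least 50 counts in all and 10 in each library, the 10 lowest ratios included those of Il1b, Il1r2, Wfdc17, Cd14 and Nfkbia. Sparser genes lay lower still, such as Jund, an AP-1 subunit, at -3.10 with 1 count in ENPP1CKO and 54 in control neutrophils. Il1b (chr2:129364570-129371139), the inflammatory cytokine that drives recruitment of leukocytes, ran from 0 to 7.27 counts per 1000 in the 11 ENPP1CKO neutrophils, with a median of 3.04, and from 0 to 35.8 in the 76 controls, with a median of 6.56. The ranges overlapped, and no ENPP1CKO neutrophil held more than 4 counts. Summed, Il1b stood at 2406 CPM (1542 to 3580) in ENPP1CKO and 7823 (7146 to 8547) in control neutrophils, a log2 ratio of -1.70 (-2.36 to -1.11), and of -1.77 (-2.50 to -1.13) without the neutrophil with most Il1b counts in each library. It was found in 9 of 11 and 71 of 76 neutrophils, and at 500 counts in 69.9% and 87.8%. In macrophages the level was higher in ENPP1CKO, at 1929 against 998 CPM, and in monocytes it was lower, at 1141 against 3348.

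Counts of Il1r2 (chr1:40074079-40125231) came from 5 of the 11 ENPP1CKO neutrophils and from 58 of the 76 controls. Its counts per 1000 ran from 0 to 6.14 with a median of 0 in ENPP1CKO and from 0 to 16.1 with a median of 2.55 in control neutrophils, so that the groups overlapped. The summed log2 ratio was -1.54 (-2.56 to -0.67) and was -2.21 (-3.68 to -1.06) without the neutrophil holding most counts in each library. Il1rn (chr2:24336853-24351494), the secreted antagonist of interleukin 1, lay on the other side, with 31 counts in ENPP1CKO and 47 in control neutrophils. Its log2 ratio was 2.05 (1.35 to 2.74). Without the neutrophil with most counts in each library it was 1.03 (-0.03 to 1.98), and these limits included 0.

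Wfdc17 showed the lowest ratio of the genes with at least 50 counts in all and 10 in each library. It was found in 5 of 11 and 44 of 76 neutrophils, with medians of 0 and 1.40 counts per 1000 and highest values of 10.6 and 87.9, and the groups overlapped. The log2 ratio was -2.34 (-3.30 to -1.52) and -3.29 (-4.92 to -2.05) without the neutrophil holding most of it in each library. In macrophages Wfdc17 stood at 3021 and 3067 CPM. Cd14, the coreceptor for lipopolysaccharide, was found in 7 of 11 and 53 of 76 neutrophils with a log2 ratio of -1.25 (-2.06 to -0.55). Nfkbia, which encodes the NF-kB inhibitor and is itself an NF-kB target, was found in 7 and 52 with a ratio of -1.37 (-2.31 to -0.57), and no ENPP1CKO neutrophil exceeded 3.04 counts per 1000 against 19.5 in control. H3f3b, a replication-independent histone H3.3 gene, was found in 11 of 11 and 74 of 76 with a ratio of -1.20 (-1.76 to -0.68). In macrophages Cd14, Nfkbia and H3f3b were 0.27, 0.28 and 0.32 higher in ENPP1CKO on the log2 scale. Apoe at -1.41 (-2.001 to -0.87) rested on the control barcode with macrophage genes, and was 1.60 (0.91 to 2.26) without the deepest neutrophil of each library. In ENPP1CKO, 18 of the 29 Apoe counts lay in 1 barcode. Without the neutrophil with most Apoe counts in each library the ratio was 0.08 (-0.99 to 1.02).

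**Figure D4:**
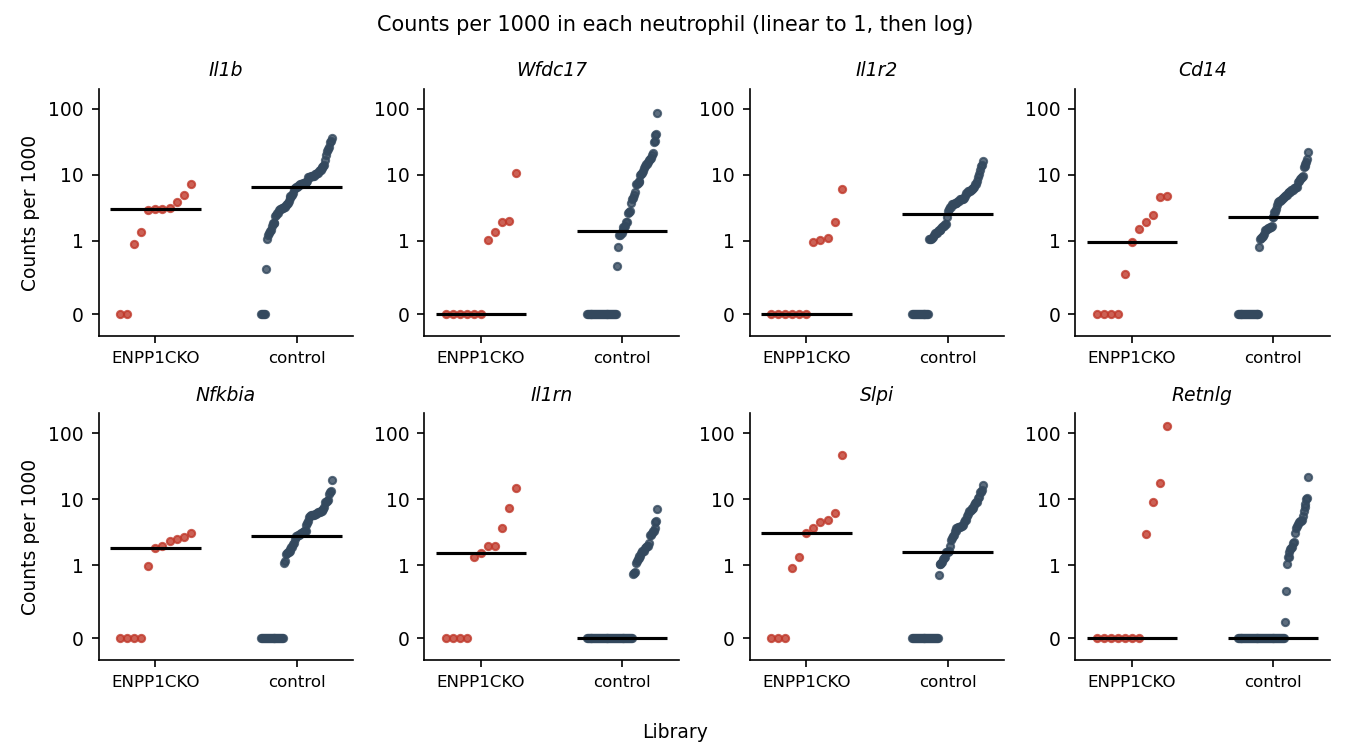
Counts per 1000 of 8 genes (panels, y axis linear to 1 and then log) in each of the 11 ENPP1CKO and 76 control neutrophils, with the median as a bar. The ENPP1CKO values of Il1b reach 7.27 and those of control neutrophils 35.8, and for Slpi and Retnlg a single ENPP1CKO barcode lies above all others.

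The highest ratio of the genes with at least 50 counts in all and 10 in each library, that of Retnlg at 4.06 (3.71 to 4.41), became 0.47 (-0.37 to 1.22) once the single ENPP1CKO barcode was left out. Without the neutrophil with most Retnlg counts in each library it was 0.86 (0.003 to 1.64). Slpi, at 1.42 (1.03 to 1.81), became -0.31 (-1.06 to 0.36) without the neutrophil with most Slpi counts in each library. Actb, at 1.04 (0.71 to 1.36), had 52 of its 105 ENPP1CKO counts in 1 barcode and was 0.25 (-0.20 to 0.68) without it and its control counterpart. The calcium-binding S100a6 held to a higher level, at 1.24 (0.87 to 1.61) and 1.00 (0.55 to 1.42), and was found in 9 of 11 and 58 of 76 neutrophils. In macrophages S100a6 was lower in ENPP1CKO, at 611 against 1086 CPM. Clec4e, the C-type lectin Mincle that senses dead cells and mycobacterial lipid, was at 1.10 (0.44 to 1.73) and then 0.78 (-0.01 to 1.497). The mitochondrial transcripts mt-Co3, mt-Cytb and mt-Nd4 were among the 10 highest of the genes with at least 50 counts in all and 10 in each library. The 13 mitochondrial genes made up a median of 1.82% of counts in ENPP1CKO and 0.566% in control neutrophils, and 2.56% and 2.15% in macrophages of the same libraries. Their summed log2 ratio was 1.01 (0.80 to 1.22), and 0.71 (0.45 to 0.96) without the neutrophil with the most such counts in each library, which in ENPP1CKO held 14.2% of its counts in these genes.

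**Figure D5:**
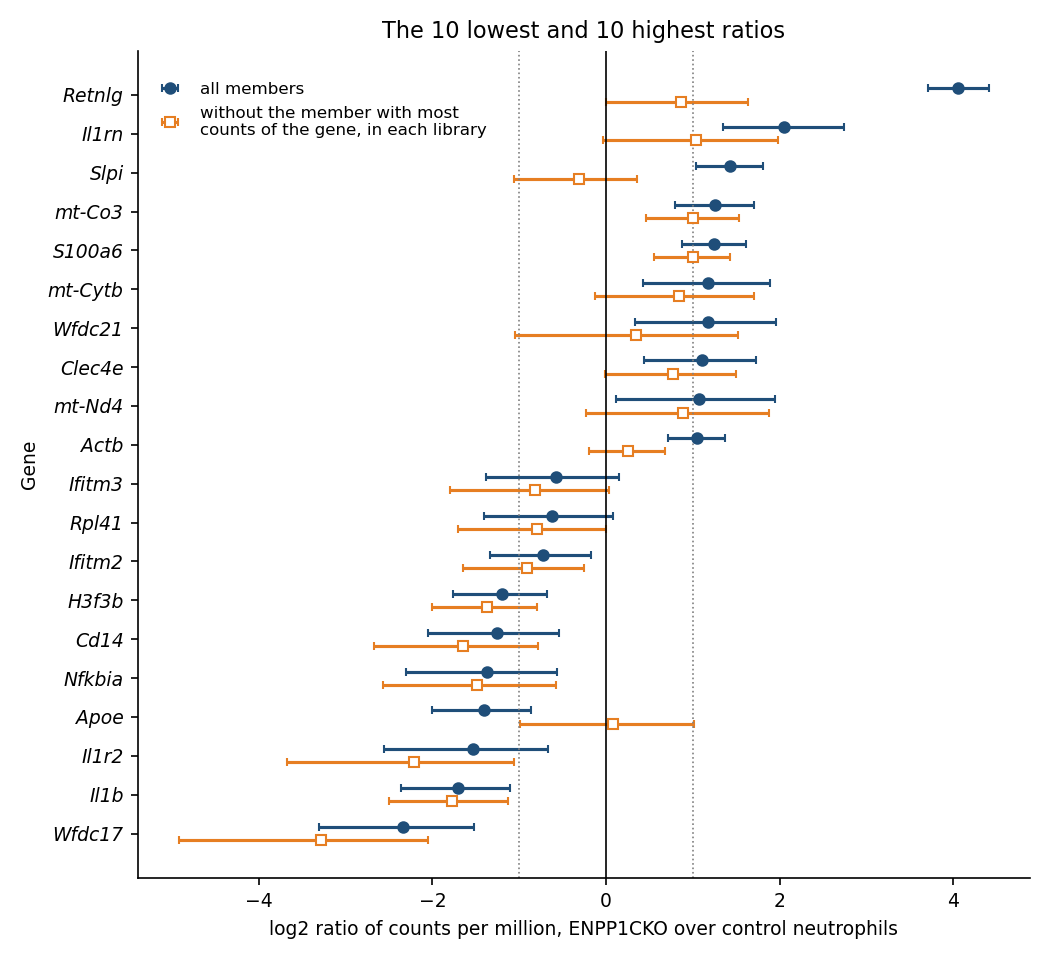
The log2 ratio of CPM, ENPP1CKO over control neutrophils (x axis), of the 10 lowest and 10 highest genes (y axis) among those with at least 50 counts in all and 10 in each library, with exact 95% limits. Filled circles use all neutrophils and open squares leave out the neutrophil with most counts of that gene in each library. Retnlg goes from 4.06 to 0.86, Apoe from -1.41 to 0.08 and Il1b from -1.70 to -1.77. Leaving out 1 of 11 against 1 of 76 neutrophils tends to lower ratios, so the squares cannot test the low ones.

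Interferon-stimulated genes, which mark a known subset of neutrophils, had few counts in ENPP1CKO. Of the 21 genes of the list with a count in any neutrophil, 81.0% had 0 counts in ENPP1CKO neutrophils, against 64.8% of all 6273 genes with a count. In all, the 22 genes of the list held 26 and 445 counts, or 2607 and 7090 CPM, a log2 ratio of -1.44 (-2.07 to -0.87). The counts lay in 6 of 11 and 67 of 76 neutrophils, with medians of 1.82 and 3.60 per 1000 and highest values of 7.87 and 73.4. Ifitm3, a membrane protein that many cells express without interferon, contributed 17 and 159 of them. The list without Ifitm3, set apart after the values were seen, held 9 and 286 counts, in 3 of 11 and 49 of 76 neutrophils, with a log2 ratio of -2.34 (-3.48 to -1.39). Isg15, the ubiquitin-like modifier, had 5 and 57 counts, the antiviral enzyme Rsad2 had 0 and 23, and Slfn4 had 0 and 23. Of the 5 genes with at least 20 counts in this list, 0 were 2-fold higher and 1 was 2-fold lower, with a median of -0.57 against -0.08. Rsad2 and Slfn4 were set at 3 counts in ENPP1CKO and so could not be called 2-fold lower. The 1 lower gene therefore cannot be read against the 18.1% of all genes. Without the neutrophil with most counts of each gene in each library, 0 were higher and 2 lower. Only 3 genes still gave a direction, and their median was -2.45. In macrophages the 22 genes stood at 2246 and 2482 CPM and in monocytes at 4524 and 6166.

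The other groups passed the same filter on counts and were read against the same background of 7.98% higher and 18.1% lower. Of 17 receptors of chemoattractants, cytokines and microbes with at least 20 counts, 2 were at least 2-fold higher and 5 at least 2-fold lower, with a median of -0.18. Csf3r was at 0.73 (-0.44 to 1.76), the complement receptor C5ar1 at -0.18 (-1.07 to 0.61) and the C-type lectin Clec4d at -0.12 (-1.05 to 0.69). Cxcr2 had 1 count in ENPP1CKO and 35 in control neutrophils, a ratio of -2.48 whose limits ran from -7.82 to 0.10. Of 7 cytokines and chemokines, 1 was higher and 1 lower, with a median of 0.57. Cxcl2, a ligand of Cxcr2, was at 0.11 (-0.25 to 0.45), with 36 of its 80 ENPP1CKO and 104 of its 467 control counts in 1 neutrophil each, and at -0.25 without these. The chemokine Ccl6 was at 0.79 (0.26 to 1.30). Of 5 genes of the NADPH oxidase, 0 passed 2-fold in either direction and their median was -0.02, with Cyba at -0.02 (-0.76 to 0.65). Of 18 genes of mature blood neutrophils, 3 were higher and 2 lower with a median of 0.01.

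Of 5 genes of neutrophils in inflamed tissue, 1 was higher and 1 lower, with a median of 0.57. Siglecf, a sialic acid-binding lectin that marks a neutrophil state known from injured hearts and tumors, had 3 counts in ENPP1CKO and 1 in control neutrophils, 2 of the former in the barcode nearest the threshold, which had a count of 1 of the 9 neutrophil genes. Of 7 genes of glycolysis and of the response to hypoxia, 4 were at least 2-fold higher and 0 lower, with a median of 1.00. Without the neutrophil with most counts of each gene in each library, 1 was higher and 1 lower of the 6 that still gave a direction, with a median of 0.25. Ldha, which makes lactate, had 9 and 19 counts and a ratio of 1.58 (0.25 to 2.79), and Hilpda, at 1.81 (0.53 to 3.00), had all ENPP1CKO counts in 1 neutrophil. Summed over the 22 genes of that list the log2 ratio was 0.69 (0.29 to 1.07). Of 5 genes listed for gelatinase granules, 3 were higher and 0 lower, with a median of 1.43. The list is a loose one, since the 3 include Mmp8, the neutrophil collagenase. Mmp8 stood at 3.07 (1.90 to 4.28), with 14 of its 16 ENPP1CKO counts in 1 neutrophil. Summed over all 7 genes of that list, the ratio of 1.34 (0.86 to 1.81) became 0.33 (-0.38 to 0.98) without the deepest neutrophil of each library. Of 10 immediate early genes, 1 was higher and 2 lower with a median of -0.01. Of 3 survival genes 0 passed 2-fold, with a median of 0.48 and with Mcl1, which sustains short-lived neutrophils, at 0.69 (-0.55 to 1.78). Of 6 adhesion genes, 2 were higher and 0 lower with a median of 0.59. Of 4 glucocorticoid-responsive genes 0 were higher and 1 lower, with a median of -0.35, and of 5 transcription factors 0 were higher and 1 lower, with a median of -0.12. Acod1 had 4 counts in ENPP1CKO, all in 1 neutrophil, and 82 counts in 38 control neutrophils, a log2 ratio of -1.70 (-3.61 to -0.29). Leaving out the neutrophil with most counts of each gene in each library takes 1 of 11 neutrophils against 1 of 76, and it lowered the median of each group named next. The glucocorticoid-responsive genes then had 2 lower and a median of -1.07, and the tissue genes had 0 higher and 1 lower of 4 with a median of -0.74. The medians of the cytokines, the blood genes and the survival genes turned from 0.57, 0.01 and 0.48 to -0.25, -0.30 and -0.24. In these groups 1, 0 and 0 genes were higher and 2, 2 and 1 lower. The adhesion genes had 1 higher and 2 lower with a median of 0.21, the immediate early genes 0 and 1 with -0.41, the gelatinase granule genes 1 and 0 with 0.61, the receptors 1 and 4 with -0.31, the NADPH oxidase genes 0 and 1 with -0.08 and the transcription factors 0 and 1 with -0.31. Members of the Bcl2a1 family are nearly identical and their split counts are uncertain.

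Genes of purine signaling, the pathway of the deleted enzyme, were sparse. The 16 genes held 5 counts in ENPP1CKO and 37 in control neutrophils, and 0 reached 20 counts. Entpd1, the CD39 ectonucleotidase, had 4 and 15 counts. Nt5e, the CD73 enzyme that turns AMP into adenosine, had 0 and 6, and the ADP receptor P2ry13 had 0 and 7. Summed over the list, the log2 ratio was -0.23 (-1.94 to 1.12), and no difference was detectable at this depth.

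RNA of other cells was also present in the neutrophil droplets. The C1q genes, which define macrophages, had 0 counts in ENPP1CKO and 97 in control neutrophils, of which 17 lay outside the deepest control barcode, and they reached 9.86% of the level in control macrophages with that barcode and 1.86% without it. The 12 macrophage genes as a whole held 35 and 634 counts in 9 of 11 and 57 of 76 neutrophils, and their summed log2 ratio of -1.53 (-2.06 to -1.03) became 1.15 (0.53 to 1.74) without the deepest neutrophil of each library. The latter value rested largely on 1 ENPP1CKO barcode with 18 counts of Apoe. Without the neutrophil with most Apoe counts in each library, the ratio of Apoe alone was 0.08 (-0.99 to 1.02). Of 9 fibroblast genes, 12 and 93 counts were found in 8 and 49 neutrophils, and Sparc, Postn and Lum together stood at 2.86% and 2.32% of their level in fibroblasts. The 7 monocyte genes held 2 and 41 counts, the 8 dendritic cell genes 0 and 102 (29 without the deepest control barcode) and the 10 lymphocyte genes 1 and 29. Those of endothelial cells held 1 and 2 and those of mural cells 1 and 7. Genes of cardiomyocytes, platelets and basophils or mast cells had 0 counts. The part of this RNA in the ratios was not tested. Wfdc17, Il1b, Il1r2, Nfkbia, Cd14 and H3f3b lay between -3.29 and -0.85 on the log2 scale in each of 9 other settings. The one that left out neutrophils with at least 0.1% of counts from C1q genes removed control neutrophils only, leaving 11 and 62. The genes named were picked from the 10 lowest ratios of these same neutrophils, so the range is not independent of their choice. Apoe, also among the 10, changed sign in some settings. Some of the 9 could not test these ratios. The quality filter without doublets kept the same neutrophils, and TMM factors and totals without S100a8 and S100a9 shift all genes alike. Leaving out the neutrophil with most counts takes 1 of 11 against 1 of 76, which itself lowers ratios.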

How the data were processed

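The authors deposited 2 tables of raw counts, genes by barcodes, 1 for each genotype. The submitters' processing notes name Cell Ranger and the mm10 build. The library kit and the filter on barcodes are not given in the sources used here. The tables held 31053 gene IDs, of which 30934 were matched to a symbol. The 35 bulk libraries were not used here, and 0 columns of other samples entered.

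The barcodes, lists and comparison classes were chosen with earlier results of these data known. Macrophages were other barcodes with at least 0.3% of counts from the C1q genes and under 0.5% from the collagen genes and Dcn, monocytes had under 0.1% from C1q and at least 0.2% from Ly6c2, Chil3, Plac8 and Ccr2, and fibroblasts had at least 2% from the collagen genes and Dcn. Counts were summed over neutrophils of a library and divided by their total. Limits were exact (Clopper-Pearson for shares, Poisson for sums, conditional binomial for ratios) at 95%, and that of a difference of shares was combined from both. PCR and capture errors are not covered. Genes named were the markers of the label, 12 genes highest over other barcodes with a count in at least 25% of neutrophils, 10 genes at each end of the ratio with at least 50 counts and 10 in each library, those over 50 counts with under 10 in a library, up to 6 genes of each of 31 lists, and Enpp1. Scrublet in scanpy 1.11.5 called 151 and 69 doublets, 2.02% and 1.29% of barcodes, of which 0 were neutrophils. Doublets were kept, and leaving them out was an alternative, as were other thresholds of the rule, a minimum of 1000 counts, thinning to 1000, and leaving out the deepest neutrophils. Leaving out the neutrophil with most counts of a gene, thinning to 500, the denominators by depth and without macrophages, the sets of mitochondrial and red cell genes and the order by S100 share were chosen after seeing the data. TMM factors, an alternative scaling, came from edgeR 4.0.16, promoters and positions from RefSeq (GRCm38.p6) and GENCODE. Scripts were tested on simulated data.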

Additional observations from a re-analysis of the deposited data

Results flagged for a closer look

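Slpi had a log2 ratio of 1.42 (1.03 to 1.81), ENPP1CKO over control, in neutrophils and of -5.45 (-5.90 to -5.03) in macrophages, where it stood at 6.77 and 296 CPM (counts per 1000000). It was noted because the ratio passed 2-fold in opposite directions with both limits off 0. Other genes, such as Il1b, also had opposite signs, but under 2-fold in 1 of the cell types. In neutrophils 61 of the 81 ENPP1CKO counts lay in 1 barcode, and the ratio was -0.31 (-1.06 to 0.36) without the neutrophil with most counts in each library, so that the opposite direction was lost.

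Wfdc21 had a log2 ratio of 1.17 (0.33 to 1.95) in neutrophils and of -4.02 (-5.68 to -2.75) in macrophages, at 0.721 and 11.7 CPM in the latter, and was noted for the same reason. In neutrophils the most counts in 1 barcode were 12 of 19 in ENPP1CKO. The ratio was 0.35 (-1.05 to 1.52) without the neutrophil with most counts in each library and -0.08 without the deepest of each, so that the opposite direction rested on single barcodes. With 1 library for each genotype, neither difference between cell types was tested.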

How the results depend on the processing

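Each library stood for 1 genotype, and depth limited most gene ratios to counting error. No paired analysis was possible because each genotype has 1 library. The share of neutrophils was lower in ENPP1CKO in each of the 9 settings tried, but several could hardly change the direction. The quality filter without doublets and the count over barcodes other than macrophages kept the same 11 and 76 neutrophils. The settings by depth only divided these neutrophils, and every setting used the same libraries. Among barcodes with at least 1000 counts the shares were 0.0578% and 0.204%, a difference of -0.147 percentage points, and among those with 500 to under 1000 counts they were 1.29% and 14.5%, a difference of -13.2. With collagens under 0.1% the control share was 0.842% and the difference -0.734, and over barcodes other than macrophages they were 2.27% and -2.07. The genes at least 2-fold higher numbered 42 of 526 in the main setting and 26 of 418 with an S100 share of at least 4%. They numbered 14 of 82 with neutrophils thinned to 1000 counts and 11 of 207 at a minimum of 50 counts. Those at least 2-fold lower numbered 14 and 29 in the latter 2 settings. The percent past 2-fold in either direction was 26.0, 23.4, 34.1 and 19.3, in the order of settings given. The median over all genes was 0.042 when thinned, which left 4 ENPP1CKO and 10 control neutrophils. Of 873 gene ratios recomputed, 816 stayed within their counting limits, 48 moved beyond them while keeping their sign or starting under 2-fold, and 9 that were past 2-fold changed sign. Counting those under 2-fold, 69 changed sign, among them Cd9, from 0.43 to -1.03 (-2.06 to -0.15) without the neutrophils with most of its counts. Of the 873, the 103 under the quality filter without doublets kept every neutrophil and could not move. TMM factors and totals without S100a8 and S100a9 shifted all genes alike, and all 103 stayed in each. These settings add to the 816 without testing it. Apoe became 0.10 at an S100 share of at least 4%, 1.35 with C1q genes under 0.1%, 1.60 without the deepest neutrophil of each library and 0.084 without the neutrophils with most of its counts, the last setting also taking Slpi to -0.31. Thinning took Actb to -0.41, Plek to 0.084 and Rtp4 to 0.00996, and Wfdc21 was -0.080 without the deepest neutrophils. Beyond the smaller number of cells or genes that a setting leaves, the cause was not tested.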
